A study of Mus musculus with 2 samples.

Results

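The 6 miRs miR-320, miR-484, miR-877, miR-702, miR-1224 and miR-1839, which reach the Dicer step without being cut by Drosha, were examined in mouse sperm. All entries of the count tables bearing one of these names were kept, both arms included, which gave 11 of the 1886 miR entries. They fall into 3 classes by their known origin: miR-320 and miR-484 with 3 entries are capped, miR-877, miR-702 and miR-1224 with 6 entries are mirtrons, and miR-1839 with 2 entries is snoRNA-derived. Sperm of wild-type C57BL/6J mice aged 3 months was profiled by small RNA sequencing in 2 libraries, replicate 1 and replicate 2, described as independent biological replicates of naive animals. The names of the deposited tables carry the word POSTTREAT, which the sample labels do not explain, and the number of mice behind each library is not given in the sources used here. There was 1 condition, so no contrast between conditions was tested.

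Most miRs are cut from a long transcript by Drosha with its partner DGCR8, and the released hairpin is then cut by Dicer into short 5p and 3p arms. The members use other routes to the hairpin. A capped precursor begins at the transcription start site and keeps the cap at its 5′ end, so the end of the 5p side is set by transcription. A mirtron is a short intron that splicing releases and that folds into a hairpin by itself, so its outer ends are splice sites. A snoRNA-derived miR is cut from a small nucleolar RNA or a related Cajal body RNA (scaRNA), which normally guides the chemical modification of other RNAs. The count tables hold reads per mature arm, so neither caps nor splicing were measured here.

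Of the 11 member entries, 8 were matched to a mature sequence in RefSeq (GRCm38.p6), while miR-320-3p, miR-320-5p and miR-1839-3p were not. The 3 entries below gave most reads among the matched ones or stand for the mirtron class, and their seeds, bases 2 to 8, are in capitals.
miR-1839-5p: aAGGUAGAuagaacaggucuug
miR-484: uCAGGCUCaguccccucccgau
miR-877-3p: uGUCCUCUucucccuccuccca
Each of the 8 sequences had its own seed, and none was contained in another mature sequence of the RefSeq table or contained one. The seed of miR-702-5p, UGAGUGG, was shared with miR-3102-5p, an arm of another mirtron, and the seeds of the other 7 were shared with no mature miR of the table. miR-3102-5p had no read in either library.

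The hairpins of the mirtrons and of miR-1839 are given to show where their ends lie. Mature arms present in the table are in capitals.
Mir877: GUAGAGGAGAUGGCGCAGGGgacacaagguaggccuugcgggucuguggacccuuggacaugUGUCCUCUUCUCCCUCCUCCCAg
Mir1224: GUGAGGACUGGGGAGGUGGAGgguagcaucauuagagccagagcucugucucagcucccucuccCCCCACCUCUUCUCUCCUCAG
Mir702: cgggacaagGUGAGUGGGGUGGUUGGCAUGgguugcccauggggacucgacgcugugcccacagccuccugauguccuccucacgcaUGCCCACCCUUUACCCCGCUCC
Mir1839: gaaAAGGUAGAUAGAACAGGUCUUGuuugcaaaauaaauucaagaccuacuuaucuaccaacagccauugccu
In the GENCODE M21 annotation of GRCm38, Mir877 (chr17:35960730-35960814, minus strand) filled intron 12 of Abcf1, a gene of translation initiation, from its first to its last base. Mir1224 (chr16:20604452-20604536, plus strand) filled intron 22 of Vwa5b2 in the same way. Both hairpins begin with GU and end with AG, the letters of splice sites. Mir702 (chr5:136991433-136991541, plus strand) began with 9 bases of the exon before intron 13 of Plod3, a collagen-modifying hydroxylase. Its 5p arm started at the first base of that intron of 102 bases, and its 3p arm ended 2 bases before the intron's end. Mir1839 (chr7:81529916-81529988, plus strand) overlapped an annotated scaRNA gene of 127 bases by 66 bases and ran 7 bases past its end. It also lies within the long non-coding RNA gene 2900076A07Rik.

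**Figure D1:**
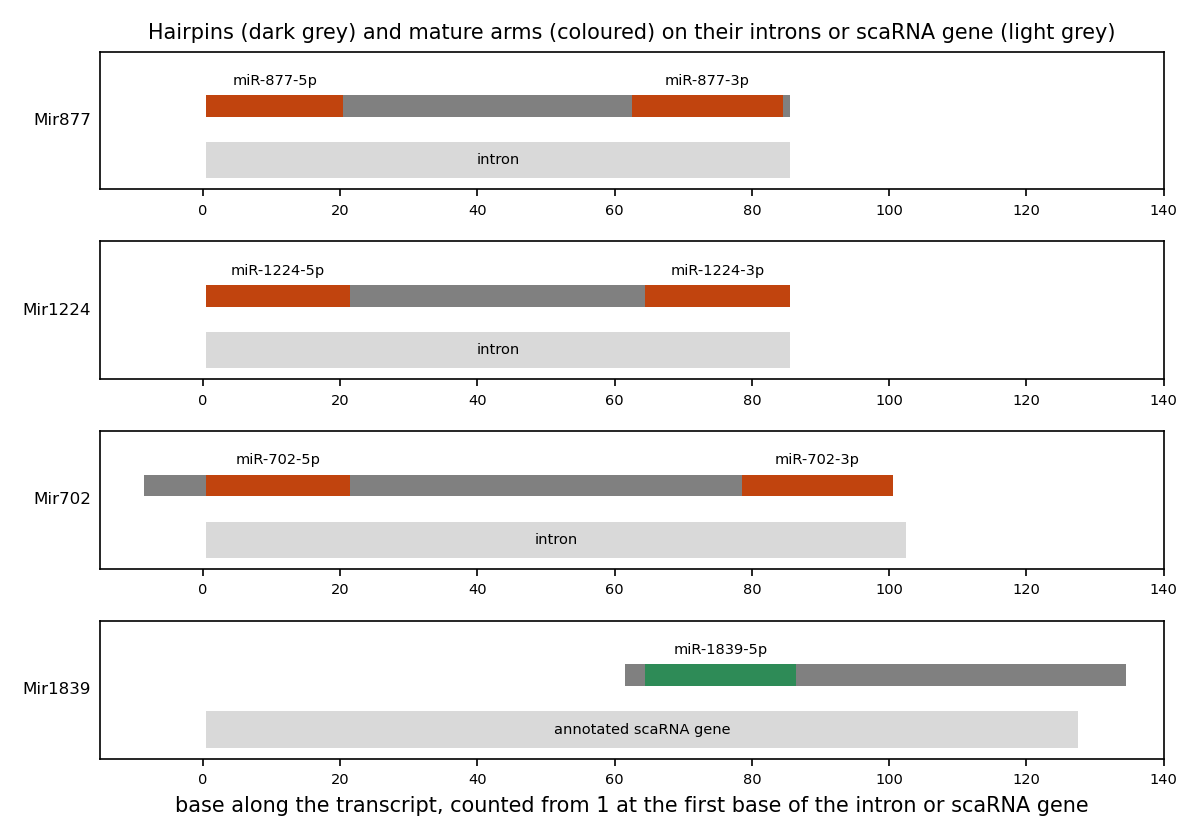
Hairpins and mature arms of Mir877, Mir1224, Mir702 and Mir1839, drawn in bases along the transcript from the first base of the intron or scaRNA gene. The arms of the 3 mirtrons reach within 2 bases of both intron ends, whereas miR-1839-5p covers bases 65 to 86 of the 127 of the scaRNA gene.

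The capped members lie outside such units. Mir320 (chr14:70443510-70443591, plus strand) starts 62 bases from the 5′ end of Polr3d, an RNA polymerase III subunit gene on the opposite strand. Mir484 (chr16:14159626-14159692, plus strand) lies within Marf1 on the opposite strand, and its 3′ end overlaps an untranslated exon of an annotated Marf1 transcript. The mature miR-484 sequence begins at base 5 of its hairpin of 67 bases, which places it on the 5′ side.

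Replicate 1 comprised 4049599 miR reads and replicate 2 comprised 5648067. Levels are given as CPM, the reads of an entry per 1000000 miR reads of its library, and 3 reads, taken as the smallest amount these depths can show, equal 0.741 CPM and 0.531 CPM. Over 323 entries, the 2 libraries were further apart than counting error gives (chi-square 343 for each degree of freedom), and they were kept as separate samples. miR-10a-5p and miR-10b-5p took 78.0% and 80.4% of the miR reads, so every other CPM value is measured against these 2 miRs. Of the marker miRs listed for germ cells, 10 of 17 entries had a read in both libraries, and their summed share was 0.420% in replicate 1 and 0.174% in replicate 2. Markers of smooth muscle and stroma (4.13% and 6.26%, 7 of 8 entries read in both), epithelium (1.08% and 0.882%, 11 of 12), blood (0.329% and 0.718%, 8 of 9) and brain (0.0512% and 0.0217%, 4 of 5) were also present. Nearly all of the smooth muscle and stroma share came from miR-143-3p alone, with 40849 and 61894 CPM. In such bulk RNA, fewer cells of a type and less RNA per cell cannot be told apart. All intervals below are 95% intervals and cover counting error only.

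Capped and snoRNA-derived members were present at low abundance, and mirtron members were at or under the smallest amount that could be shown. At least 1 read in each library was found for 5 of the 11 entries, namely miR-320-3p, miR-484, both arms of miR-1839 and miR-877-3p. Over all 1886 entries this share was 20.0%. miR-702-3p had 1 read in replicate 2 only, and the other 5 entries had no read. All members together gave 253 reads or 62.5 CPM in replicate 1 and 318 reads or 56.3 CPM in replicate 2, a mean of 59.4 ± 4.36 CPM (SD, n = 2 libraries). This is 0.00625% and 0.00563% of the miR reads.

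**Figure D2:**
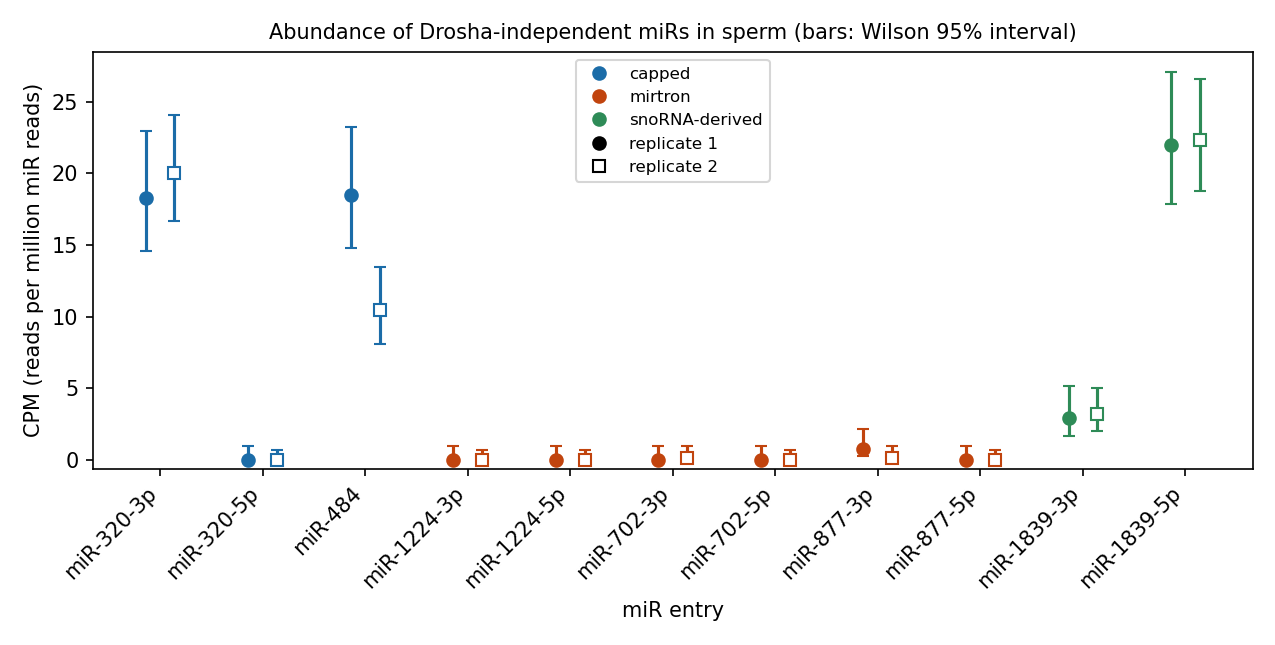
CPM of the 11 member entries in replicate 1 (filled circles) and replicate 2 (open squares), coloured by class, with Wilson 95% intervals. miR-320-3p, miR-484 and miR-1839-5p lie between 10.4 and 22.3 CPM, and every mirtron entry lies below 1 CPM.

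Among the capped members, miR-320-3p was counted 74 times in replicate 1, giving 18.3 CPM with a Wilson interval of 14.6 to 22.9, and 113 times in replicate 2, giving 20.01 CPM with one of 16.6 to 24.1. Its mean was 19.1 ± 1.23 CPM (SD, n = 2), rank 133 of the 1886 entries by mean CPM. No read of miR-320-5p, the arm next to the cap, was counted in either library, where 3 reads would be 0.741 CPM and 0.531 CPM and the Wilson upper limits are 0.949 CPM and 0.680 CPM. These limits hold for ends that could be read. A cap can keep an adapter from joining the 5′ end. The paper names a TruSeq kit for the small RNA libraries, and the sample labels name a TruSeq RNA kit. Neither says how 5′ ends were ligated, so the count of 0 does not limit the level of a capped arm. miR-484 was counted 75 times in replicate 1 at 18.5 CPM (14.8 to 23.2) and 59 times in replicate 2 at 10.4 CPM (8.10 to 13.5), with a mean of 14.5 ± 5.71 CPM (SD, n = 2) and rank 145. These 2 entries stood level in replicate 1 and apart in replicate 2. The ratio of miR-484 to miR-320-3p reads was 1.01 in replicate 1 (exact interval 0.725 to 1.42) and 0.522 in replicate 2 (0.374 to 0.722). Summed, the capped class gave 36.8 CPM and 30.5 CPM, a mean of 33.6 ± 4.48 CPM (SD, n = 2). miR-484 lies on the 5′ side of its hairpin, so any capped ends of it could go uncounted as well. Its level, the capped sum and all ratios that use them, here and below, hold for readable ends only.

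miR-1839-5p was the member with the highest mean. It was counted 89 times in replicate 1 at 22.0 CPM (Wilson interval 17.9 to 27.0) and 126 times in replicate 2 at 22.3 CPM (18.7 to 26.6), a mean of 22.1 ± 0.234 CPM (SD, n = 2) and rank 130. miR-1839-3p was counted 12 times at 2.96 CPM (1.70 to 5.18) and 18 times at 3.19 CPM (2.02 to 5.04), a mean of 3.08 ± 0.158 CPM (SD, n = 2) and rank 240. The levels of both arms were nearly equal in the 2 libraries. Together they gave 24.9 CPM and 25.5 CPM, a mean of 25.2 ± 0.392 CPM (SD, n = 2).

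Of the mirtron members, miR-877-3p, the arm at the acceptor end of the Abcf1 intron, was counted 3 times in replicate 1 at 0.741 CPM (Wilson interval 0.252 to 2.18) and once in replicate 2 at 0.177 CPM (0.0313 to 1.003). miR-702-3p had no read and 1 read. miR-877-5p, miR-702-5p and both arms of miR-1224 had no read in either library. The reads of the class, 3 in replicate 1 and 2 in replicate 2, thus all fell on 3p arms. The class sum had a mean of 0.547 ± 0.273 CPM (SD, n = 2).

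The order of the classes was set against these errors within each library. Capped reads outnumbered mirtron reads 49.7 to 1 in replicate 1 (exact interval 16.7 to 244) and 86 to 1 in replicate 2 (23.4 to 716), and snoRNA-derived reads outnumbered them 33.7 to 1 (11.2 to 166) and 72 to 1 (19.6 to 600.2). The mirtron class was thus below both others in each library by more than the counting error. The capped to snoRNA-derived ratio was 1.48 (1.14 to 1.92) in replicate 1 and 1.19 (0.952 to 1.501) in replicate 2, so these classes were not separated in replicate 2. Of the single entries, miR-1839-5p and miR-320-3p did not differ beyond counting error in either library, with ratios of 1.20 (0.874 to 1.66) and 1.12 (0.858 to 1.45). The ratio of miR-1839-5p to miR-484 was 1.19 (0.863 to 1.64) and 2.14 (1.56 to 2.96).

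Between the libraries and on the CPM scale, miR-484 differed most among the members with enough reads. Its log2 ratio of replicate 2 to replicate 1 was -0.83 (counting interval -1.32 to -0.33), against 0.13 (-0.29 to 0.55) for miR-320-3p, 0.02 (-0.37 to 0.41) for miR-1839-5p and 0.10 (-0.95 to 1.16) for miR-1839-3p. The median of these 4 entries, those with a read in each library and at least 10 reads in both together, was 0.06, beside -0.28 over all 318 such entries. On this scale miR-484 was the only one of the 4 lower in replicate 2 by 1.5-fold or more. The same held for 33.0% of the 318 entries, so its change lies within the common range. None of the 4 was higher by 1.5-fold or more, as 12.6% of the 318 entries were. TMM scaling, which allows for the composition of the libraries, adds 0.35 to every log2 ratio. It brings miR-484 to -0.48, miR-320-3p to 0.48, miR-1839-5p to 0.37 and miR-1839-3p to 0.46. The even level of miR-320-3p and of both miR-1839 arms thus holds only on the CPM scale. After TMM scaling miR-484 no longer differed most and was no longer lower by 1.5-fold. Germ cell markers were also lower in replicate 2, with a log2 ratio of their summed share of -1.27. That sum came mostly from miR-34c-5p (2983 and 1314 CPM), and the germ cell entries read in both libraries were all lower. The fall was not particular to germ cells, since brain markers gave -1.24. Epithelium markers gave -0.29, and those of smooth muscle and stroma gave 0.60. The summed share of blood markers was higher, with 1.13, but came mostly from the joined entry of miR-486a-5p and miR-486b-5p (3104 and 6891 CPM). Of the other blood markers, miR-144-3p (1.74), miR-144-5p (1.39) and miR-451a (1.01) were higher. So was miR-486a-3p (1.84), at only 0.494 and 1.77 CPM, while miR-223-5p was read in replicate 2 only, at 0.354 CPM. miR-142a-5p (0.24) and miR-142a-3p (0.08) changed little, and miR-223-3p was lower (-0.70). The part of these marker sets in the difference of miR-484 was not tested.

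**Figure D3:**
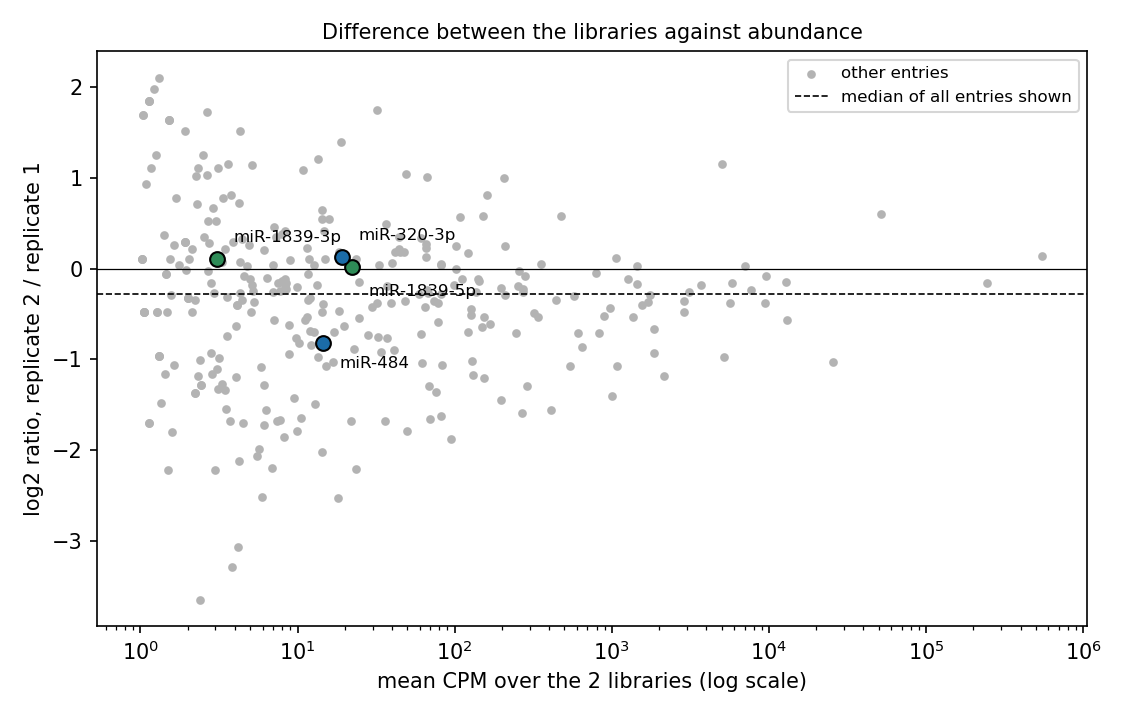
Log2 ratio of replicate 2 to replicate 1 against mean CPM (log scale) for 318 entries, with the 4 member entries that passed the read minimum coloured by class. miR-320-3p and both arms of miR-1839 lie just above 0 and above the dashed median of -0.28, and miR-484 lies below it at -0.83.

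On the CPM scale, the entries next in mean abundance differed more between the libraries than miR-1839-5p and miR-320-3p did, but after TMM scaling miR-10b-3p differed less, with a log2 ratio of -0.28. Directly above miR-1839-5p in mean CPM stood miR-30c-2-3p, with 29.9 and 16.1 CPM, and directly below it miR-878-5p, with 33.6 and 10.4 CPM. miR-320-3p stood between miR-10b-3p, with 24.2 and 15.6 CPM, and miR-144-5p, with 10.4 and 27.3 CPM. The mean of each neighbour lay within its own SD from that of the member, so these ranks are not separated. miR-671-5p and miR-99a-3p were tied with miR-877-3p, each with 3 reads and 1 read.

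The arms of a hairpin were read unequally in both members that could be assessed. For miR-320, 100% of 74 reads in replicate 1 (Wilson interval 95.1% to 100%) and 100% of 113 reads in replicate 2 (96.7% to 100%) fell on the 3p arm, a share that holds for readable ends only. This was not particular to miR-320, since 41 of 137 other hairpins with both arms listed and at least 20 reads in each library also had all reads on 1 arm, and the median share of the leading arm was 99.4%. For miR-1839, 88.1% of 101 reads (80.4% to 93.1%) and 87.5% of 144 reads (81.1% to 91.9%) fell on the 5p arm, a mean of 87.8% ± 0.438 (SD, n = 2). Its leading share was lower than in 112 of the 137 hairpins and higher than in 25. miR-484 has a single entry, and the mirtrons had too few reads for an arm share.

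**Figure D4:**
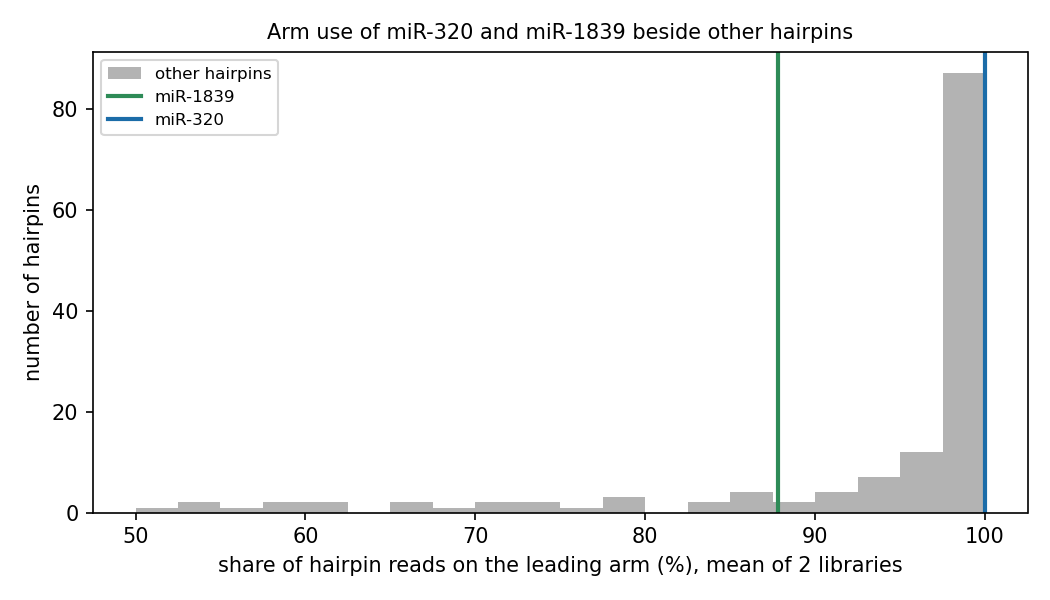
Number of hairpins by the share of their reads on the leading arm, mean of 2 libraries, for 137 hairpins with at least 20 reads in each library (grey), with miR-320 and miR-1839 as lines. miR-320 stands at 100%, as 41 of the 137 others do, and miR-1839 at 87.8%, on the low side.

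The mirtron arms and miR-484 were rich in G and C, and miR-1839-5p was not. Of the 8 matched entries, these 7 had a GC content between 59.1% and 68.2%, and miR-1839-5p had 40.9%. Over all 1613 matched mature miRs the median was 52.2%, and 31.2% had 59% or more, a limit set just under the lowest of these 7 members. A read in both libraries was found for 2 of these 7 GC-rich members, miR-484 and miR-877-3p, beside 10.3% of all mature miRs with a GC content of 59% or more and 24.7% of those below. Among mature miRs numbered miR-600 and above, as the mirtrons are, these shares were 4.31% and 6.70%, and among those numbered lower, as miR-484 is, they were 39.5% and 48.1%.

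To see whether the mirtron and snoRNA-derived members resembled other hairpins of the same position, all hairpins of the RefSeq table were sorted by the annotation, a step chosen after the members' values were known. Both arms reached within 3 bases of the ends of 1 intron in 14 hairpins, the 3 mirtron members included, and 2 of these, Mir877 and Mir1981, had an entry read in both libraries. That is 14.3%, beside 34.5% of the 626 hairpins with at least 2 arms and 9.59% of the 365 among them that are named miR-600 or above, as all 14 are. The 11 other than the members gave 31 reads in replicate 1 and 24 in replicate 2, or 7.66 and 4.25 CPM, and 1 of them or 9.09% was read in both libraries, close to the 9.59% of hairpins with similar names.

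Mir1839 included, 14 hairpins overlapped a snoRNA or scaRNA gene on the same strand, all named miR-600 or above. Of these, 10 had an entry read in both libraries, or 71.4%, beside 25.9% of all 953 matched hairpins and 8.14% of the 639 named miR-600 or above. Without Mir1839 it was 9 of 13, or 69.2%. The 13 hairpins gave 255 and 224 CPM, most of it from miR-3535 with 861 and 1034 reads. Mir1843a with 65 and 91 reads and Mir1843b with 34 and 40 reads, both on scaRNA genes, gave fewer reads than miR-1839. The tables do not tell reads of a Dicer product from other fragments of the same snoRNA, and some of these hairpins share an entry, as Mir3084-1 and Mir3084-2 do.

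**Figure D5:**
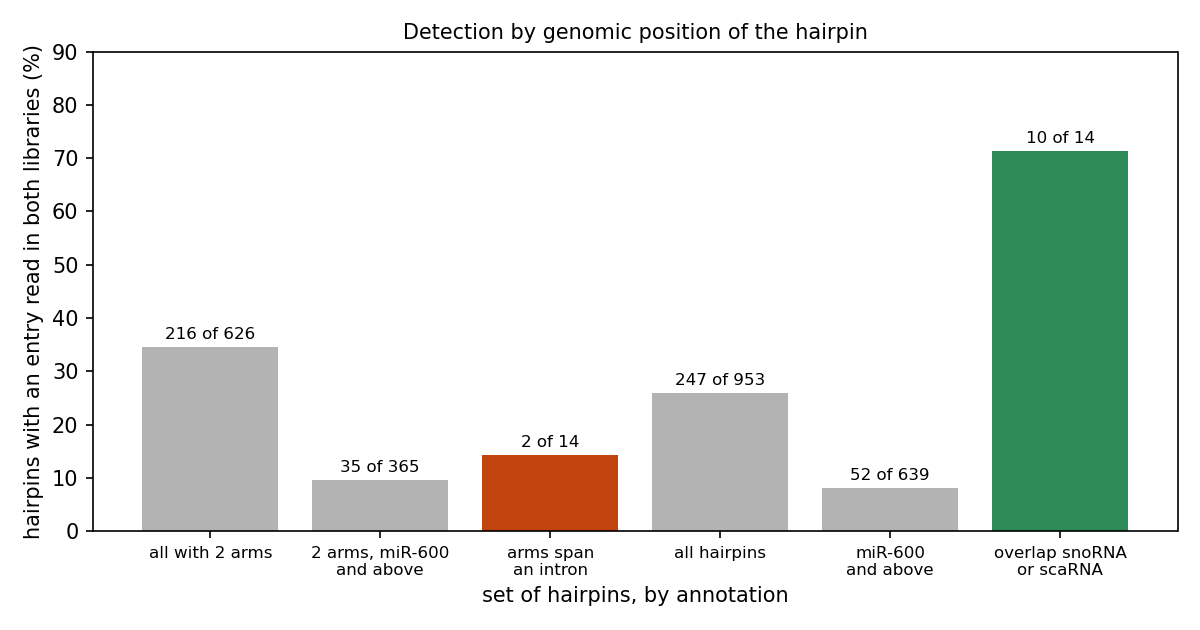
Share of hairpins with an entry read in both libraries, for all hairpins or those with at least 2 arms (grey, with the subsets named miR-600 and above), for hairpins whose arms span an intron, and for hairpins on snoRNA or scaRNA genes. The intron set stands at 14.3% and the snoRNA or scaRNA set at 71.4%, beside 9.59% and 8.14% of hairpins with similar names. Both sets include members, and without them the shares are 9.09% and 69.2%.

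Of 6 other miRs listed as independent of Drosha or overlapping a snoRNA, 5 of 12 entries had a read in both libraries, beside 20.0% of all 1886 entries. Among these 5, miR-1982-3p had only 5 and 1 reads and miR-1291 only 2 and 2. The 12 entries together gave 9.88 and 8.32 CPM. miR-1981-5p, from an intron of Marc2, led them with 13 and 19 reads, or 3.21 and 3.36 CPM, followed by miR-664-3p, which overlaps Snora36b, with 10 and 17 reads. miR-1983, from a tRNA-like hairpin, had no read. miR-451a of red blood cells, which needs Drosha but not Dicer, had 44.2 and 88.9 CPM, above every member in both libraries.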

How the data were processed

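The authors trimmed low-quality ends, removed adapters with cutadapt (version 1.8.1 per the submitters' processing notes), discarded reads under 15 bases and mapped the rest with Bowtie 1.1.2, first without mismatches to miR and piRNA sequences. HTSeq and the builds mm10 and GRCm38 are also named in these notes. They deposited raw read counts per miR entry, without pooling. That first step drops reads with added or changed end bases. The paper allowed a mismatch in its later steps, against other small RNA and the mouse genome. Whether these steps returned such reads to the miR counts is not stated. Reads listed as assigned to no miR, 38.1% and 26.3% of each table, stayed out of the totals. No entry of the members joins several names.

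Both libraries form 1 group. CPM, mean ± SD, Wilson and exact binomial intervals were computed with Python 3.11.15 and scipy 1.17.1. TMM factors came from edgeR 4.0.16 and size factors from DESeq2 1.42.0 as alternatives. No between-group test was possible. The members and lists were chosen with earlier results of these data known. Named entries are all members, the entries next in mean CPM to the leading member of each class, seed partners and the list of other miRs. Entries in the comparison by position were named after their values were seen. The log2 ratio and the Wilson interval were tested on simulated counts that held counting error only. That test does not cover the spread seen between the 2 libraries.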

Additional observations from a re-analysis of the deposited data

How the results depend on the processing

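Of 45 recomputed values, 37 stayed within the SD between the libraries, within 1.5 times a count, or, for the median ratio, within a log2 half-width of 1.05. That half-width is the counting error of miR-1839-3p, the widest of the 4 entries, and not an interval of the median. TMM scaling moved the median from 0.06 to 0.41 and still counted as within it, so the median ratio was not shown to be stable. The summed abundance moved with the denominator, as its construction requires. Against all reads listed, those of no miR included, it was 40.1 CPM for all members, 22.6 CPM for capped and 17.1 CPM for snoRNA-derived members. Against miR reads without miR-10a-5p and miR-10b-5p it was 285 CPM for all, 161 CPM for capped, 2.58 CPM for mirtron and 122 CPM for snoRNA-derived members. With the leading arm only, the snoRNA-derived sum was 22.1 CPM. A mean over 2 libraries can hardly move under TMM or DESeq2 scaling, and a library alone, with 56.3 to 62.5 CPM for all members, always lies within 1 SD, so neither shows stability. With at least 5 or 10 reads in each library, 4 entries passed in place of 5, miR-877-3p being lost. No paired analysis was possible because there is 1 group. The mirtron values rest on 5 reads in all.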

Other observations

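Other hairpins whose arms span an intron showed reads in replicate 1 that replicate 2 did not hold. Mir7068, from an intron of Cherp, had 8 reads and none, and Mir6944, from an intron of Dbn1, had 3 reads and none. Of the hairpins on snoRNA or scaRNA genes, Mir3068 had 24 and 36 reads and Mir5121, which overlaps Snord33, had 9 and 18 reads. These entries were chosen after their values were seen.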
